A study of Rattus norvegicus with 2 samples.

Results

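miR-132 and miR-212 are a pair of miRNAs made from 1 primary transcript, and both were measured in the nucleus accumbens (NAc), the part of the ventral striatum that receives dopamine input and takes part in reward. They were chosen by name, as the 2 array probes rno-miR-132 and rno-miR-212 of 349 rat miRNA probes, with no passenger strand included. The study treated adult male Sprague-Dawley rats, 18 in all and weighing 150 to 180 g at the start, by intraperitoneal injection 2 times a day for 7 days. The control group received vehicle (500 µl saline) and the other group alcohol (ethanol, 1 g/kg). Frozen sections holding the core and the shell of the NAc were used, and small RNA was tailed, stained with Cy3, a fluorescent dye, and hybridized to 1-colour arrays, 1 from vehicle-treated and 1 from alcohol-treated rats. How RNA of the rats was combined for an array is not given in the sources used here. With 1 array per group there was no test and no replicate check, and treatment and array cannot be told apart.

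In neurons, transcription of the miR-132 and miR-212 locus is known to be induced by the transcription factor CREB, which responds to synaptic activity and to the growth factor BDNF. miR-132 is best known for promoting the growth of dendrites and spines. miR-212 of the dorsal striatum is known from work on cocaine intake. A miRNA finds its targets mainly through its seed, bases 2 to 8 from the 5′ end, so miRNAs with the same seed are grouped as a family.

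The target sequences listed for the 2 probes are shown because they carry the shared seed, which is written in capitals.
miR-132: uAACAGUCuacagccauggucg
miR-212: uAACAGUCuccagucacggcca
Each has 22 bases and equals 1 mature sequence of RefSeq, rno-miR-132-3p and rno-miR-212-3p. In the GRCr8 build miR-132 lies on the plus strand at chr10:60522091-60522112 and miR-212 on the same strand at chr10:60521811-60521832, with 258 bases between them. No gene of the RefSeq table overlapped the 2 miRNA genes. The nearest gene of any type was that of a long non-coding RNA, LOC120095261, whose nearer edge lies 9 bases past their end. The nearest protein-coding genes on the 2 sides were Hic1 and Ovca2. Base for base, 17 of the 22 positions were identical, among them the first 9 without a break. The 5 differences, counted from 1 at the 5′ end with the base of miR-132 first, were A10C, C14U, U17C, U20C and G22A. Of the 22 bases, 11 were G or C in miR-132 and 12 in miR-212. No other miRNA probe of the array had this seed. The opposite arms, miR-132-5p and miR-212-5p, matched 0 probes and were not analysed here.

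Each array carried 3968 spots, of which 3141 belonged to miRNA probes at 9 repeat spots per probe. All 9 spots of a probe took up the same RNA, so each SD over them is a technical error and not a spread between rats. Detection was judged against 88 control spots that by their names carry mismatched probes. The mismatched spots had a median density of 241 (vehicle) and 145 (alcohol), and a spot counted as detected when it exceeded that median by 3 median absolute deviations (scaled to the size of an SD), which is 278 and 179. A miRNA needed at least 5 detected spots, which 151 miRNAs had with vehicle and 196 with alcohol, 150 of them in both cases. The neuronal miRNAs miR-124, miR-9 and miR-128 were detected on both arrays, whereas 0 of 5 listed blood and immune markers and 0 of 4 epithelial markers were detected on either. The first count holds for the listed markers alone, since miR-150 and miR-146a, which immune cells also express, were detected on 9 of 9 spots of both arrays. Of 4 muscle markers 1 was detected, with vehicle alone. The liver miRNA miR-122 was detected on both arrays, at a log2 ratio (alcohol over vehicle, after the normalization described below) of -2.16. The listed oligodendrocyte miRNAs miR-219-5p and miR-338 passed the detection rule with alcohol alone, at log2 ratios of 0.004 and 1.63. Unlisted arms of the same miRNAs, miR-219-2-3p at -0.25 and miR-338* at -0.72, were detected on 9 of 9 spots of both arrays. Without normalization they stood at 0.43 and 0.44, so their direction changed with it. The ratios of miR-122 and miR-338 were larger in size than those given below for miR-132 and miR-212. The part of other cells in the values of miR-132 and miR-212 was not tested. In bulk tissue, fewer cells of a type and less RNA per cell cannot be told apart.

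miR-132 was bright on both arrays and its raw density was lower on the alcohol array. On the vehicle array its 9 spots had a lowest raw density of 17217, a median of 18767 and a highest of 19793, with a mean of 18734 ± 868 (SD, 9 spots). On the alcohol array the lowest was 13974, the median 15225 and the highest 15774, with a mean of 15043 ± 636 (SD, 9 spots). Every alcohol spot was below every vehicle spot, a pattern that 13.3% of the 150 miRNAs detected on both arrays had in the raw densities. Its spots were even, with a coefficient of variation of 4.63% for vehicle and 4.23% for alcohol, against medians of 9.10% and 6.38% over these 150 miRNAs.

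For miR-212 the raw density was higher on the alcohol array. On the vehicle array the lowest spot read 732, the median 947 and the highest 1228, with a mean of 982 ± 184 (SD, 9 spots). On the alcohol array the lowest spot read 2036, the median 2305 and the highest 2464, with a mean of 2282 and an SD of 137.9 over 9 spots. Every alcohol spot was above every vehicle spot, as was the case for 52.7% of the 150 miRNAs, so the direction of the raw densities was common. The spot-to-spot variation of 18.7% on the vehicle array was larger than the 6.04% on the alcohol array. Within a spot the pixels varied less, with a median pixel SD of 82.5 for vehicle and 101 for alcohol. The brightness of a spot also depends on its probe, so the densities do not give the relative abundance of the 2 miRNAs.

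**Figure D1:**
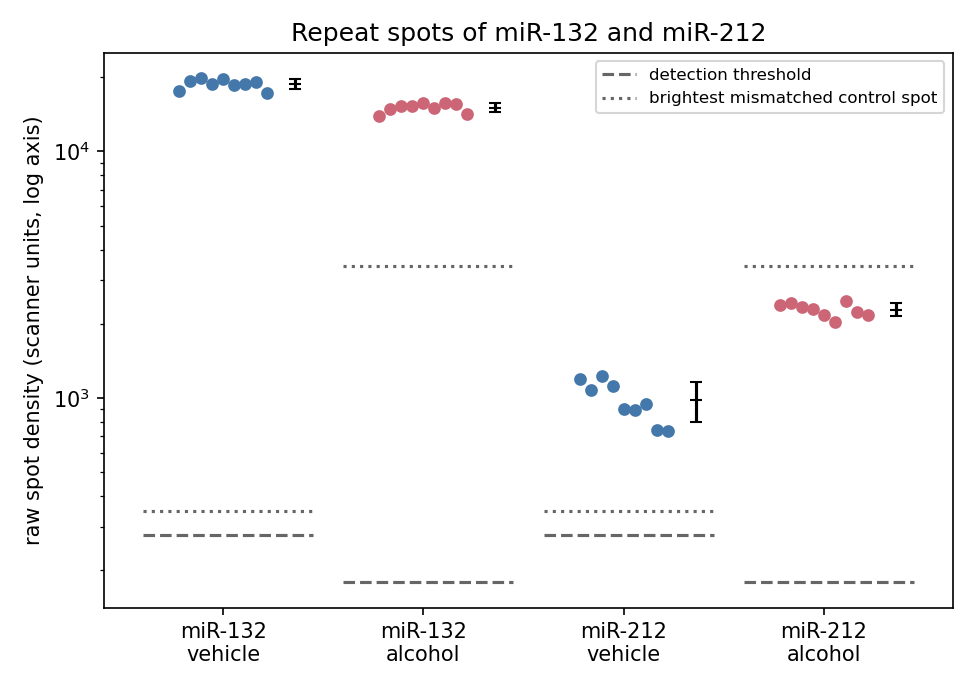
Raw density of the 9 repeat spots (points) of miR-132 and miR-212 on the vehicle and the alcohol array, on a log axis, with the mean and SD at the right of each set. Dashed lines mark the detection threshold of each array and dotted lines its brightest mismatched control spot, which lies at 349 (vehicle) and at 3435 (alcohol, above all 9 miR-212 spots there).

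Both miRNAs were detected on all 9 spots of both arrays. Detection on every spot was met by 39.3% of the 349 miRNAs with vehicle and by 51.3% with alcohol. The mean density of miR-132 was 67.5 times the detection threshold with vehicle and 84.1 times with alcohol. That of miR-212 was 3.54 times the threshold on the vehicle array, where its lowest spot stood at 2.64 times, and 12.8 times on the alcohol array. Set against the brightest single mismatched spot, 9 of 9 spots of miR-132 lay higher on both arrays. At least 5 spots lay higher for 35.2% of the 349 miRNAs with vehicle and for 15.8% with alcohol. For miR-212, 9 of 9 lay higher with vehicle and 0 of 9 with alcohol. That alcohol limit was set by 1 control probe, Ctr09-3M10, whose 4 spots averaged 2749 with alcohol and 304 with vehicle. The other 84 mismatched spots reached at most 726 on the alcohol array, which every miR-212 spot exceeded. How far binding of RNA with mismatches entered the miR-212 signal was not tested. The other probe nearest in sequence to miR-212, that of miR-200a with 13 identical bases, was not above background on either array, and neither was that of miR-141, the nearest to miR-132 with 12. Binding of miR-132 RNA to the miR-212 probe, with 17 identical bases, was not tested.

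After background correction and cyclic loess normalization between the arrays, which removes differences that depend on brightness, miR-212 stayed higher on the alcohol array and miR-132 was slightly lower. The normalized signal of miR-212 was 1140 with vehicle and 1626 with alcohol. The log2 ratio, alcohol over vehicle, was 0.51 ± 0.28 (SD, 9 spots), or 1.43-fold. Over the 9 spot positions the ratio ran from 0.16 to 0.93. In these values 8 of the 9 alcohol spots were above every vehicle spot, and 1 was within the vehicle range, so the spots of the arrays overlapped. Spots that did not overlap were seen for 10.7% of the 150 miRNAs in the direction of miR-212 and for 24% in that of miR-132. The signal of miR-132 was 17512 with vehicle and 15884 with alcohol. Its log2 ratio was -0.14 ± 0.05 (SD, 9 spots), which is 90.7% of vehicle. Over the 9 positions this ratio ran from -0.21 to -0.07, and 4 of the 9 alcohol spots lay within the vehicle range. A direction shared by all spots of a probe describes these arrays and says nothing about the spread between rats.

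miR-212 passed the 1.3-fold threshold used for all miRNAs and miR-132 did not. The threshold was applied to 125 miRNAs, those detected on either array that reached a normalized signal of 400 on the brighter one. Of these, 26.4% were higher with alcohol by 1.3-fold or more and 20.8% were lower by as much. Ordered by ratio from the highest, miR-212 ranked 23 and miR-132 ranked 88 among the 150 miRNAs detected on both arrays, whose median log2 ratio was -0.07. The log2 ratio of miR-212 exceeded that of miR-132 by 0.65 ± 0.28 (SDs over spots combined), an error that covers the spots alone. With quantile normalization the difference was 0.19, smaller than that SD. In the processed signal that the authors deposited, miR-132 read 15716 for vehicle and 14760 for alcohol, a log2 ratio of -0.09. On that scale miR-212 read 1065 and 1434, a log2 ratio of 0.43.

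The 2 miRNAs stood in different ranges of brightness, and before normalization the ratio of the arrays varied with brightness. Without normalization the log2 ratio was 1.40 for miR-212 and -0.31 for miR-132, a difference of 1.71. The 36 other miRNAs detected on both arrays within 1 log2 unit of the brightness of miR-212 had a median of 1.09, and 13 of them were higher than miR-212. The 21 miRNAs within 1 log2 unit of miR-132 had a median of -0.26, and 13 of them were higher than miR-132. Cyclic loess lowered the log2 ratio of miR-212 by 0.89 and raised that of miR-132 by 0.17. The medians of these 2 sets of miRNAs differed by 1.35, against 1.71 for miR-212 and miR-132 themselves.

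**Figure D2:**
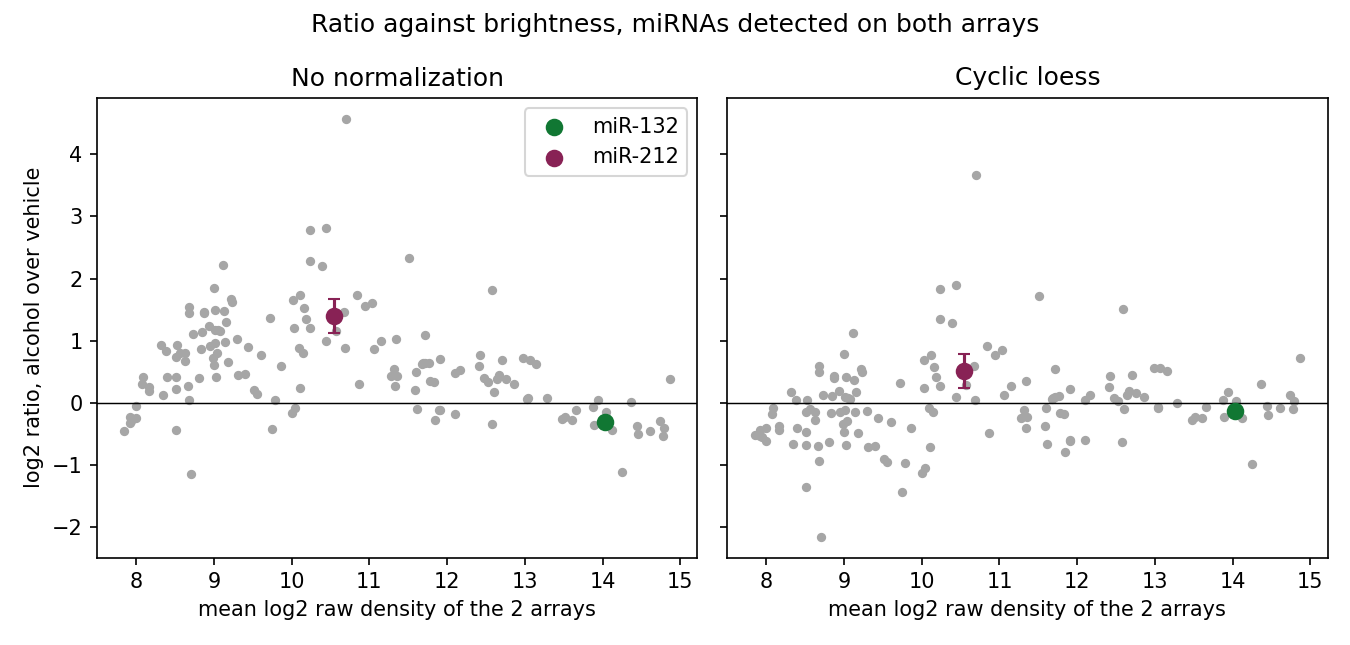
Log2 ratio of alcohol over vehicle against the mean log2 raw density of both arrays, without normalization (left) and after cyclic loess (right), for the 150 miRNAs detected on both arrays (grey), with miR-132 and miR-212 in colour and bars for the SD over 9 spots. On the left the cloud lies above 0 at the brightness of miR-212 and below 0 at that of miR-132, and on the right miR-212 is at 0.51 and miR-132 at -0.14.

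The direction of both ratios was the same under all 14 other ways of processing, while the sizes were not. For miR-212 the log2 ratio was between 0.14 with quantile normalization and 1.70 with scaling to the 5S rRNA probes, and it passed 1.3-fold under 12 of the 14. Over the 14, the share of miRNAs called higher ran from 13.8% with scaling to the median to 75.8% with the 5S rRNA probes. Each share is of the miRNAs that met the detection rule and the signal minimum in that setting, 105 to 136 of them. miR-212 missed the threshold with quantile normalization, where 21.8% of miRNAs were called higher, and at 0.18 with scaling to the detected miRNAs' median, where it was 13.8%. For miR-132 the log2 ratio was between -1.53 and -0.01, the latter with the 5S rRNA probes and smaller than its SD over spots of 0.05. It was at least 1.3-fold lower under 2 of the 14, scaling to the median at -1.53 and to the 75th percentile at -1.28, where 64.2% and 48% of miRNAs were called lower. miR-212 was above miR-132 under all 14, by 0.19 to 1.71. The lowest difference, with quantile normalization, was smaller than the SD over spots of 0.28. The 14 are not separate checks, since all rest on the same arrays and many repeat cyclic loess with another step changed. Without normalization and with each scaling by a constant the difference is the same, 1.71, because a constant shift of an array cancels in it. The rank of miR-212 among the 150 ratios was between 21 and 47, and that of miR-132 between 71 and 136.

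**Figure D3:**
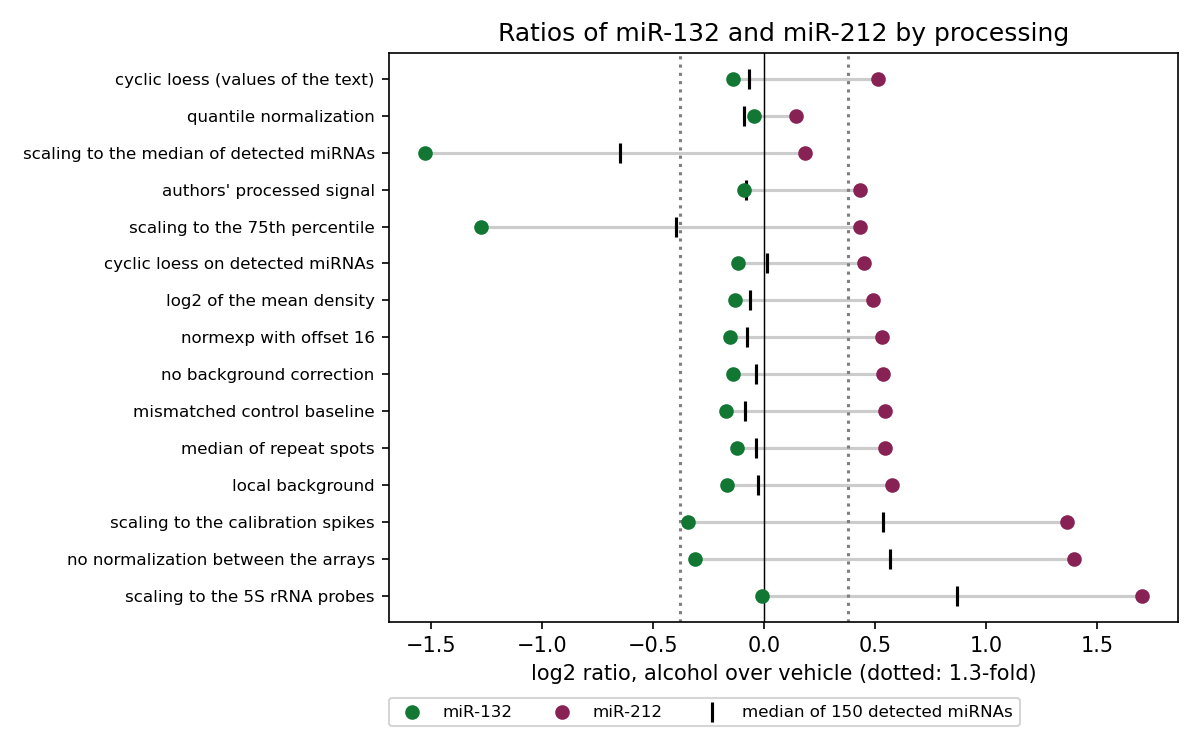
Log2 ratios of alcohol over vehicle for miR-132 and miR-212 (points) and the median over 150 detected miRNAs (bars) under cyclic loess and 14 other ways of processing, with dotted lines at 1.3-fold. miR-212 lies to the right of miR-132 in every line, and the length of the line between them runs from 0.19 to 1.71.

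The vehicle spots of miR-212 differed with their place on the array. The repeat spots stood in 3 sets of 3, at rows 11, 53 and 95 for miR-212 and at rows 5, 47 and 89 for miR-132. The vehicle spots of miR-212 read 1195, 1078 and 1228 in the first set, 1122, 905 and 895 in the middle set and 947, 741 and 732 in the last. On the alcohol array they read 2388, 2420 and 2338, then 2305, 2178 and 2036, and then 2464, 2228 and 2178. The vehicle means went from 1167 through 974 to 807, and the alcohol means were 2382, 2173 and 2290. The last set thus read 69.1% of the first for vehicle and 96.2% for alcohol. Over the 150 miRNAs detected on both arrays the median was 87.5% for vehicle and 99.9% for alcohol, and 20 of the 150 had a lower vehicle share than miR-212. miR-132 did not show this, with 96.8% for vehicle and 103% for alcohol. Taken set by set, the log2 ratio of miR-212 without normalization was 1.15, 1.32 and 1.72. The median over the 150 miRNAs rose as well, at 0.39, 0.55 and 0.75. With each set normalized on its own the ratio of miR-212 was 0.46, 0.44 and 0.65. That of miR-132 normalized in the same way was -0.11, -0.13 and -0.16. The higher ratio of miR-212 was present in each set. This split by row was made after the values had been seen. Whether the place on the array caused the difference between the sets was not tested.

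**Figure D4:**
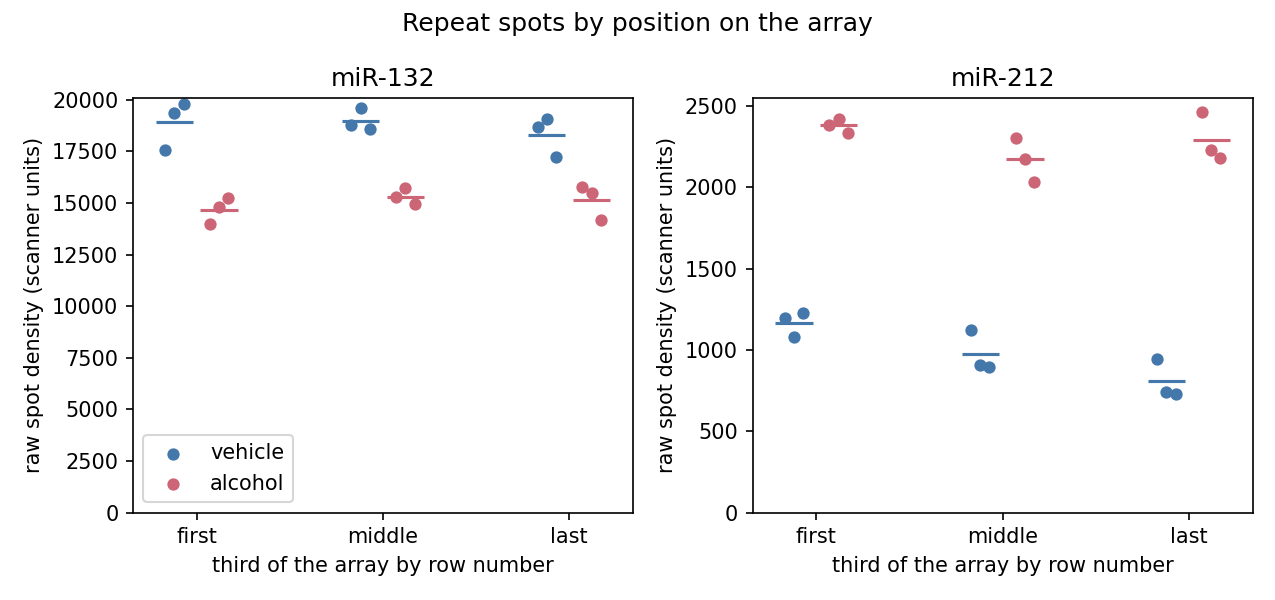
Raw density of the repeat spots of miR-132 (left) and miR-212 (right) in the first, middle and last set of rows of each array, with 3 spots per set (points) and their mean (lines). The vehicle means of miR-212 go from 1167 to 807, and its alcohol means stay between 2173 and 2382.

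By a rule that takes miRNAs of like brightness with the closest ratio, those nearest to miR-132 among 21 candidates were miR-26a at a log2 ratio of -0.11 ± 0.03, let-7c at -0.19 ± 0.06 and let-7a at -0.09 ± 0.06 (SD, 9 spots each). Those nearest to miR-212 among 36 were miR-598-3p at 0.58 ± 0.53, miR-145 at 0.60 ± 0.28 and miR-543* at 0.41 ± 0.24. Likeness here rests on 2 arrays alone. A list of 15 other miRNAs linked to neuronal activity or to CREB or BDNF signalling was found in full on the array, and 13 were detected on both arrays. Their median log2 ratio was 0.03, against -0.07 for all 150. Of 11 that met the signal minimum, 3 were at least 1.3-fold higher (miR-9, miR-137 and miR-218) and 2 at least 1.3-fold lower (miR-134 and miR-485). With 26.4% higher and 20.8% lower among all 125 miRNAs, these counts were near the background. The lowest was miR-134, a miRNA known for restricting the size of dendritic spines, at -1.44 ± 0.10. The highest was miR-9 at 0.72 ± 2.57, which is smaller than its spread over spots. The mean raw density of miR-9 was lower with alcohol, at 26758 against 33523 with vehicle. Its log2 ratio in the authors' processed signal was 0.13, so its place among the higher miRNAs depended on the processing. The ratio of miR-212, at 0.51, was near those of miR-137 at 0.55 ± 0.16 and miR-218 at 0.51 ± 0.45 (SD, 9 spots each). Among list members detected on both arrays, that of miR-132 lay between miR-138 at -0.18 ± 0.10 and miR-128 at 0.02 ± 0.07.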

How the data were processed

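The authors deposited a spot intensity per array, the mean density over pixels with no background subtracted, and a processed signal intensity per probe. The processed signal was normalized between arrays by the authors with a cyclic method whose tool is not given in the sources used here. The SD of pixels within a spot was also read. Here limma 3.58.1 (R 4.3.3) was used for background correction by normexp with an offset of 50, fitted on the density column. The log2 values of repeat spots were averaged, followed by cyclic loess between the arrays over 349 miRNA probes, with a span of 0.7 and 3 iterations. An SD of a ratio is over the 9 spot positions. Sequences came from the deposited spot tables and RefSeq (GRCr8), where 289 of 349 targets equal a mature sequence. Other steps used Python 3.11.15. On simulated arrays of 349 miRNAs, the steps called 20 of 20 raised by 2-fold, 20 of 20 lowered by 2-fold and 0 of 110 left unchanged. These changes were larger than the cyclic loess ratios of miR-212 and miR-132. The simulation checks that the steps run and does not show how reliable a 1.3-fold call is on these arrays. The miRNAs, lists, the detection rule and the alternatives were chosen with earlier results of these data known. Named are both members, the 3 miRNAs nearest in ratio within 1 log2 unit of brightness, and the extremes of the activity list. Others were named after their values were seen. Precision is limited by the number of arrays. A t-test, named in the methods, was not run, since repeat spots are not rats.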

Additional observations from a re-analysis of the deposited data

How the results depend on the processing

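No paired analysis was possible because there was only 1 array for each group. Without normalization the log2 ratio was -0.31 for miR-132 and 1.40 for miR-212, with quantile normalization -0.048 and 0.14, with scaling to the median of detected miRNAs -1.53 and 0.18, with the 5S rRNA probes (24 spots) -0.011 and 1.70, and with the calibration spikes (68 perfectly matched spots by name) -0.35 and 1.36. The 75th percentile gave -1.28 for miR-132 and the authors' processed signal -0.091. The difference between the 2, 0.65, was 0.19 with quantile normalization and 1.71 without normalization and under each constant scaling, which cannot change it. Leaving out 1 repeat spot at a time gave -0.14 to -0.13 for miR-132, 0.48 to 0.53 for miR-212 and 0.62 to 0.68 for their difference. The distance of miR-132 from the median of the detected miRNAs, -0.07, was -0.88 without normalization and under each constant scaling, 0.043 with quantile normalization, -0.13 when loess used detected miRNAs alone, -0.14 after local background subtraction, -0.0093 in the authors' signal and, in the last set of rows, a setting added after the values were seen, -0.15. Leaving out 1 spot gave -0.086 to -0.067. That of miR-212, 0.58, was 0.23 with quantile normalization and 0.55 to 0.59 with 1 spot left out. The counts of 33 miRNAs at least 1.3-fold higher and 26 lower became 85 and 8 without normalization, 17 and 79 when scaled to the median, 100 and 2 with 5S rRNA and 81 and 10 with spikes, 60 lower with the 75th percentile, 19 higher at 1.5-fold, and 11 and 5 at 2-fold. The other settings left each value within 1 SD over spots and each count within 1.5 times, and the cause of the shifts was not tested. With every repeat spot required, which 39.3% (vehicle) and 51.3% (alcohol) of the 349 miRNAs met, detection held on 4 of 4 combinations of miRNA and array. Above the highest mismatched control spot, which 35.2% and 15.8% met, it held on 3 of 4. A limit of 3 SD above the empty spots was met by 99.7% with vehicle and says nothing there. Over 2 arrays no ratio can be compared with the spread from rat to rat.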
